A study of Sus scrofa with 30 samples.

Results

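FLT1, KDR, CDH5, ERG, PECAM1, VWF, LYVE1 and EDNRB are genes used to mark the endothelium of blood and lymph vessels, and their levels were followed through both tissue layers of normal and inverted pig teats. The members were all probe sets whose only platform gene symbol is 1 of these 8, which gave 18 of 24123 probe sets on the array, for 8 of the 6765 genes with such a probe set. FLT1, VWF and LYVE1 had 3 probe sets each, KDR, CDH5, PECAM1 and EDNRB had 2, and ERG had 1. Of several probe sets, the brightest on average stands for its gene, and the other ones are given beside it where they were bright enough to test.

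Endothelial cells line vessels and are held together by junction proteins such as VE-cadherin, the product of CDH5. Their growth and survival depend on VEGF ligands, which are bound by the tyrosine kinase receptors FLT1 and KDR, and their identity is maintained by ETS family transcription factors such as ERG. Lymph vessels share part of this programme and carry the hyaluronan receptor LYVE1, which some tissue macrophages also carry. Below the skin of the teat, vessels supply the ducts, connective tissue and muscle, so a tissue piece holds them in a share that can differ from piece to piece.

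The series profiled teats of 10 peripubertal pigs from commercial dam lines, collected at slaughter at a mean end weight of 110 kg, on Affymetrix Porcine Genome arrays, to find genes that bear on the inverted teat. There were 6 groups of 5 arrays. Animals 950, 957, 1040, 1058 and 1109 were non-affected and gave a normal teat each. Animals 963, 964, 1037, 1059 and 1103 were affected and gave both a normal and an inverted teat. Epithelial and mesenchymal tissue were measured apart, with 1 array for each animal, teat type and tissue. An affected animal is one with inverted teats, and teat type was judged by inspection and palpation. The breed was German Landrace for 957 and 963 and Large White x German Landrace for 6 animals. Animals 1103 and 1109 were of the cross Pietrain x (Large White x German Landrace).

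All levels below are deposited log2 signals, and all differences are log2 differences with their standard error. The median signal of an array lay between 5.71 and 6.04. The tissue labels were only partly borne out by marker genes. The mean of the luminal keratins KRT8, KRT18 and KRT19 was 9.27 to 10.66 on 14 of 15 epithelial arrays, but it ranged from 2.38 to 11.14 on mesenchymal arrays. The mean of 10 skeletal muscle genes was 2.82 to 12.61 on mesenchymal and 2.38 to 9.80 on epithelial arrays. One array stood apart. The epithelial inverted teat of animal 1103 had a keratin mean of 6.75 and the highest mean of 8 smooth muscle genes on any array, 10.48. Differences and correlations that rest on this array are given with and without it, with group means taken again over the arrays kept. Since whole tissue was measured, fewer vessel cells and less RNA per vessel cell cannot be told apart.

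The 8 genes were above the 30th percentile of the array, the limit used to decide what to test, on different numbers of arrays. CDH5, ERG, PECAM1, VWF, LYVE1 and EDNRB passed it on all 30 arrays, FLT1 on 25 and KDR on 20. A position below this limit is not a test of absence. Of the 18 probe sets 13 were tested. The 5 others, 2 of FLT1 and 1 each of KDR, VWF and EDNRB, had means of 3.55 or less and passed the limit on 0 to 3 arrays.

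FLT1 and KDR, the receptors for VEGF ligands on endothelial cells, did not pass the test in any comparison, and neighbouring groups in the order of their means differed by less than the larger of their SDs. FLT1 measured 4.54, 5.03, 4.54, 5.24 and 4.49 in epithelial normal teats of the non-affected animals 950, 957, 1040, 1058 and 1109. In the affected animals 963, 964, 1037, 1059 and 1103 it measured 4.83, 4.81, 5.45, 4.70 and 5.10 in epithelial normal teats and 4.92, 5.18, 5.50, 5.03 and 5.84 in epithelial inverted teats. Each affected animal thus had the higher FLT1 signal in its inverted teat, by 0.05 to 0.74, although the groups overlapped. In mesenchymal tissue FLT1 measured 4.49, 5.14, 5.72, 4.79 and 5.27 in the non-affected animals. It measured 5.00, 5.11, 5.52, 4.34 and 5.56 in normal and 5.34, 4.99, 5.58, 5.25 and 5.68 in inverted teats of the affected animals. Here 4 of 5 animals had the higher value in the inverted teat, and animal 964 had the lower.

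KDR, the main signalling receptor for VEGFA, showed a narrower range, from 4.21 to 5.43. Its means were 4.79 ± 0.28, 4.86 ± 0.35 and 4.97 ± 0.31 (SD, n = 5) in epithelial tissue of non-affected animals, of affected animals with a normal and of affected animals with an inverted teat. In mesenchymal tissue the same groups had 4.90 ± 0.19, 4.95 ± 0.42 and 5.12 ± 0.23. With all arrays, the order of the 6 group means was the same for FLT1 and KDR, with inverted teats first in both tissues and epithelial normal teats of non-affected animals last. Every step in that order was smaller than the larger SD of the neighbouring groups. For KDR the place of epithelial inverted teats rested on the array of animal 1103, at 5.43 the highest of its group. Without that array their KDR mean was below those of mesenchymal normal teats. The mesenchymal normal teat of animal 1103 was low for KDR at 4.21, against 5.01 to 5.20 in the other 4 arrays of its group.

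In the deposited values ERG, an ETS transcription factor of the endothelium, was the only member whose difference between tissues ran toward epithelial tissue in both normal (0.27 ± 0.20) and inverted teats (0.31 ± 0.29), and neither passed the test described below. With quantile normalization PECAM1 and VWF also ran toward epithelial tissue in both teat types. In epithelial tissue ERG measured 7.15, 6.34, 6.35, 7.29 and 6.92 in the non-affected animals. In the affected animals it measured 6.45, 6.47, 6.98, 7.01 and 6.91 in normal and 6.50, 6.74, 7.12, 6.68 and 8.02 in inverted teats, where animal 1103 was the highest. The mesenchymal values were 6.94, 6.53, 7.33, 6.09 and 7.10 in the non-affected animals. They were 6.41, 6.38, 7.02, 5.68 and 5.73 in normal and 6.69, 6.95, 6.995, 6.03 and 6.84 in inverted teats of the affected animals. Animals 1059 and 1103 were low in their mesenchymal normal teats, so this group had the lowest ERG mean of the 6, 6.24 ± 0.55 (SD, n = 5), and it overlapped with the others.

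CDH5, the cadherin of endothelial junctions, and PECAM1, an adhesion molecule of endothelial cells, platelets and leukocytes, varied more between mesenchymal than between epithelial arrays. In epithelial tissue CDH5 measured 8.96, 9.07, 8.73, 9.35 and 8.82 in non-affected animals, and 8.76, 9.01, 9.49, 9.10 and 9.22 in normal teats of affected animals. Their inverted teats measured 8.97, 8.97, 9.31, 9.08 and 9.92, the last again from animal 1103. In mesenchymal tissue CDH5 measured 8.78, 9.24, 10.04, 8.81 and 9.85 in non-affected animals, 9.12, 9.38, 9.80, 9.02 and 9.84 in normal and 9.40, 9.27, 10.03, 8.86 and 9.95 in inverted teats. Animals 1040, 1109, 1037 and 1103 were high in mesenchymal tissue in every teat sampled, at 9.80 to 10.04, while the remaining mesenchymal arrays lay at 8.78 to 9.40. These 4 animals were picked out after their values were seen, include both affected and non-affected ones, and were not compared by a test.

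PECAM1 had group means of 10.45 ± 0.19, 10.45 ± 0.18 and 10.56 ± 0.31 (SD, n = 5) in epithelial tissue. In mesenchymal tissue they were 10.77 ± 0.56, 10.50 ± 0.35 and 10.67 ± 0.40, in the order non-affected, affected normal and affected inverted. The mesenchymal normal teat of animal 1040 had the highest PECAM1 signal of all arrays, 11.51, and that of animal 1059 the lowest, 10.01. All groups overlapped.

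VWF encodes von Willebrand factor, the clotting protein that endothelial cells store and release. It measured 9.46, 10.19, 9.30, 10.36 and 9.42 in epithelial normal teats of non-affected animals. In affected animals it measured 9.44, 9.998, 10.07, 10.24 and 9.91 in epithelial normal and 9.68, 9.63, 9.93, 10.16 and 10.83 in epithelial inverted teats. The array of animal 1103 was again the highest of the epithelial arrays. The mesenchymal values were 9.43, 10.15, 11.36, 9.33 and 10.02 in non-affected animals, 9.74, 9.98, 10.61, 9.22 and 10.29 in normal and 10.40, 9.91, 10.41, 9.37 and 9.96 in inverted teats of affected animals. The array of animal 1040, at 11.36 against 10.15 for the next highest, gave its group an SD of 0.81, against 0.30 to 0.53 in the 5 other groups.

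LYVE1, the hyaluronan receptor of lymphatic endothelium, was higher in mesenchymal than in epithelial tissue in most animals. Its epithelial signal was 6.79, 5.67, 7.72, 7.31 and 6.29 in non-affected animals, 7.94, 6.80, 7.84, 6.29 and 7.38 in normal and 7.44, 7.17, 7.77, 7.12 and 6.02 in inverted teats of affected animals. Its mesenchymal signal was 7.95, 7.56, 6.84, 7.90 and 7.95 in non-affected animals, 8.002, 7.56, 7.54, 7.56 and 8.68 in normal and 7.48, 8.26, 7.56, 8.07 and 7.93 in inverted teats. The tissues overlapped, because the epithelial samples of animals 963, 1037 and 1040 were as high as many mesenchymal ones. Animal 1040, the highest for VWF, PECAM1 and CDH5 in mesenchymal tissue, was the lowest there for LYVE1. The array of animal 1103, the highest epithelial one for those 3 genes, was the lowest epithelial inverted teat for LYVE1.

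EDNRB, a receptor for endothelins found on endothelium and in the melanocyte lineage, had the narrowest range of the 8, from 4.82 to 5.70. In mesenchymal tissue it measured 5.20, 5.09, 5.31, 5.31 and 5.23 in non-affected animals, and 5.24, 5.13, 4.87, 4.96 and 5.06 in normal teats of affected animals. In their inverted teats it measured 5.70, 5.05, 5.55, 5.50 and 5.63. Animals 963, 1037, 1059 and 1103 were thus higher in the inverted teat by 0.46 to 0.68, and animal 964 was lower by a difference of -0.08. In epithelial tissue the group means were 5.01 ± 0.15, 5.11 ± 0.20 and 5.12 ± 0.26 (SD, n = 5), and only 2 of 5 animals were higher in the inverted teat.

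**Figure D1:**
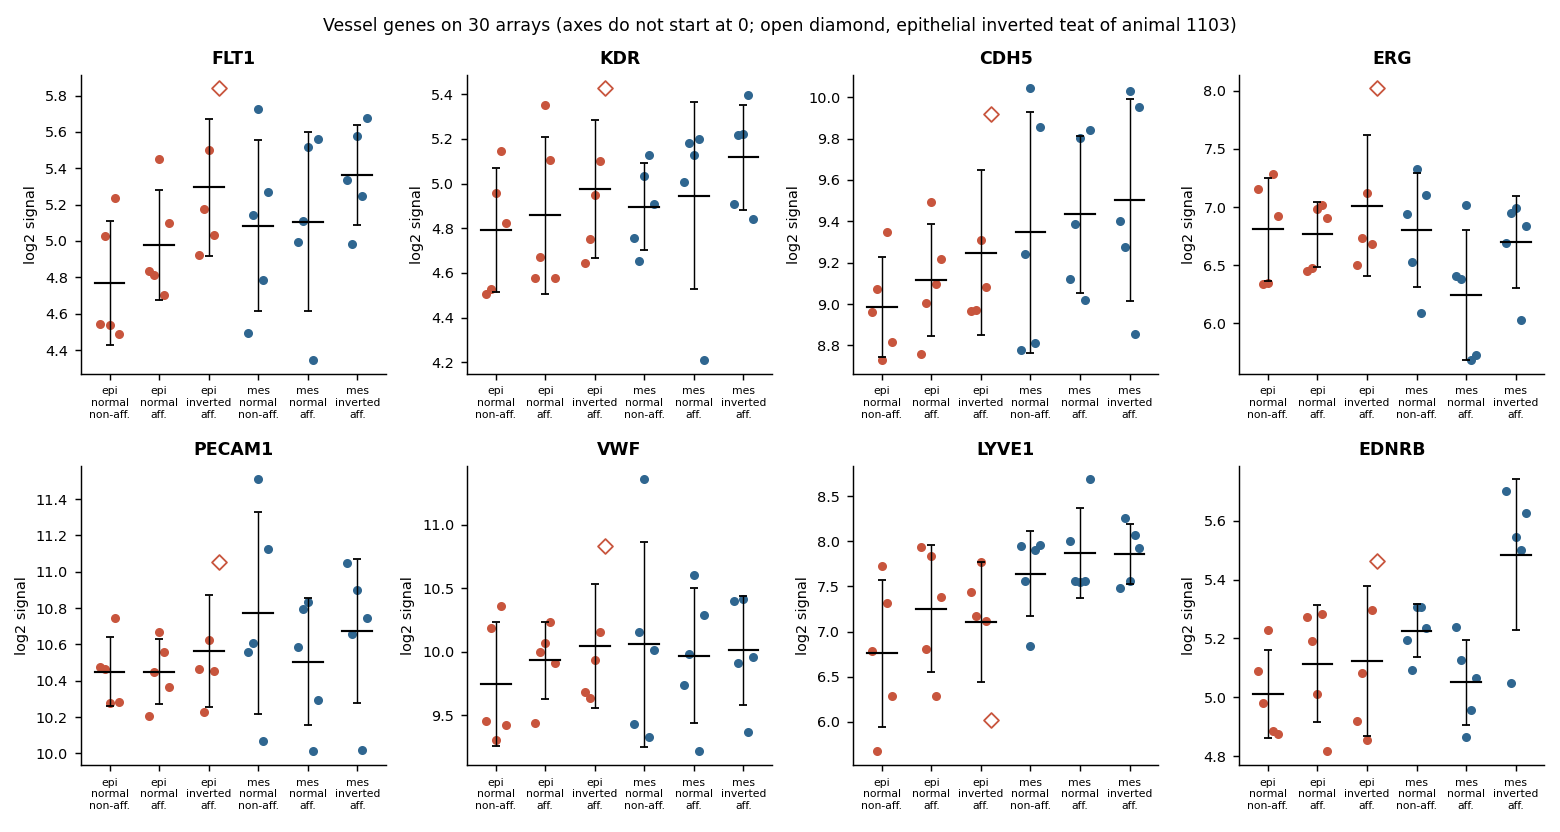
Log2 signal of the 8 vessel genes (vertical axes) in the 6 groups, with epithelial (epi) arrays in red, mesenchymal (mes) arrays in blue, and a line and bar for the mean and SD of 5 arrays. The open diamond is the epithelial inverted teat of animal 1103, the highest epithelial array for 7 of the 8 genes and low for LYVE1 at 6.02, and the EDNRB panel shows 4 mesenchymal inverted teats at 5.50 to 5.70.

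The tissue comparison asks which genes mark each layer of a normal teat. With limma and affection status as a covariate, 1 of the 8 genes passed an adjusted p of 0.05: the epithelial level of LYVE1 was lower, with a difference of -0.75 ± 0.26 (SE, n = 10 animals, limma adjusted p = 0.0321). LYVE1 was lower in epithelial tissue in 4 of 5 non-affected and 4 of 5 affected animals. Over all 18286 probe sets tested, 33.5% passed in either direction and 20.6% in the direction of LYVE1, so 1 of 8 is below the share of all probe sets. The 8 genes had a median difference of -0.18, against -0.06 over all probe sets tested, and 7 of them had lower values in epithelial tissue. That count falls to 5 with quantile normalization of the arrays.

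The call for LYVE1, more than its difference, depended on single animals, on the scaling and on the probe set. The second bright LYVE1 probe set gave -0.48 ± 0.25 (limma adjusted p = 0.142) and the dimmest one -0.03 ± 0.17. The first kept its direction without any single animal, with differences between -0.93 and -0.63, and kept its call with the animal as a random or fixed block (limma adjusted p = 0.0122 and 0.0279). It lost the call without any 1 of animals 950, 957, 1059, 1103 or 1109 and with quantile normalization, at -0.65 ± 0.26 (limma adjusted p = 0.0583). Of 6 macrophage genes 5 also had lower values in epithelial tissue of normal teats, with a median of -0.24 and 0 past the threshold of limma, while 4 had lower values with quantile normalization (median -0.04). In inverted teats all 6 had lower values under both scalings, with a median of -0.75. The part of this list in the LYVE1 difference was not tested.

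None of the other 7 genes passed in normal teats. CDH5 differed by -0.34 ± 0.17 (limma adjusted p = 0.122), FLT1 by -0.22 ± 0.18, KDR by -0.10 ± 0.14, EDNRB by -0.08 ± 0.09 and ERG by 0.27 ± 0.20. PECAM1 with -0.19 ± 0.16 and VWF with -0.17 ± 0.23 turned to 0.21 and 0.17 with quantile normalization, so these 2 genes have no direction between the tissues that holds under both scalings. The second probe sets of CDH5, PECAM1 and VWF gave -0.45 ± 0.19, -0.32 ± 0.17 and -0.39 ± 0.16. Of these, the CDH5 and the VWF probe set passed the threshold once the animal was included as a random block (limma adjusted p = 0.0259 and 0.0175), against 0.0743 and 0.0618 without it.

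In inverted teats 0 of the 8 genes passed the same test, where limma called 12.4% of 17108 probe sets. LYVE1 and EDNRB had the lowest p-values. LYVE1 differed by -0.75 ± 0.30 (SE, n = 5 animals, limma adjusted p = 0.118), with 4 of 5 animals lower in epithelial tissue, and by -0.48 ± 0.21 without the epithelial array of animal 1103. EDNRB differed by -0.36 ± 0.17 (limma adjusted p = 0.183) and by -0.45 ± 0.17 without that array. The share of probe sets called is itself unstable here: the count of 2115 fell to 1 without animal 1037, 1059 or 1103 and to 2 with quantile normalization, which moved the median difference of all probe sets from -0.12 to 0.01. With that scaling PECAM1 moved from -0.11 to 0.38, CDH5 from -0.25 to 0.13 and VWF from 0.04 to 0.50.

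**Figure D2:**
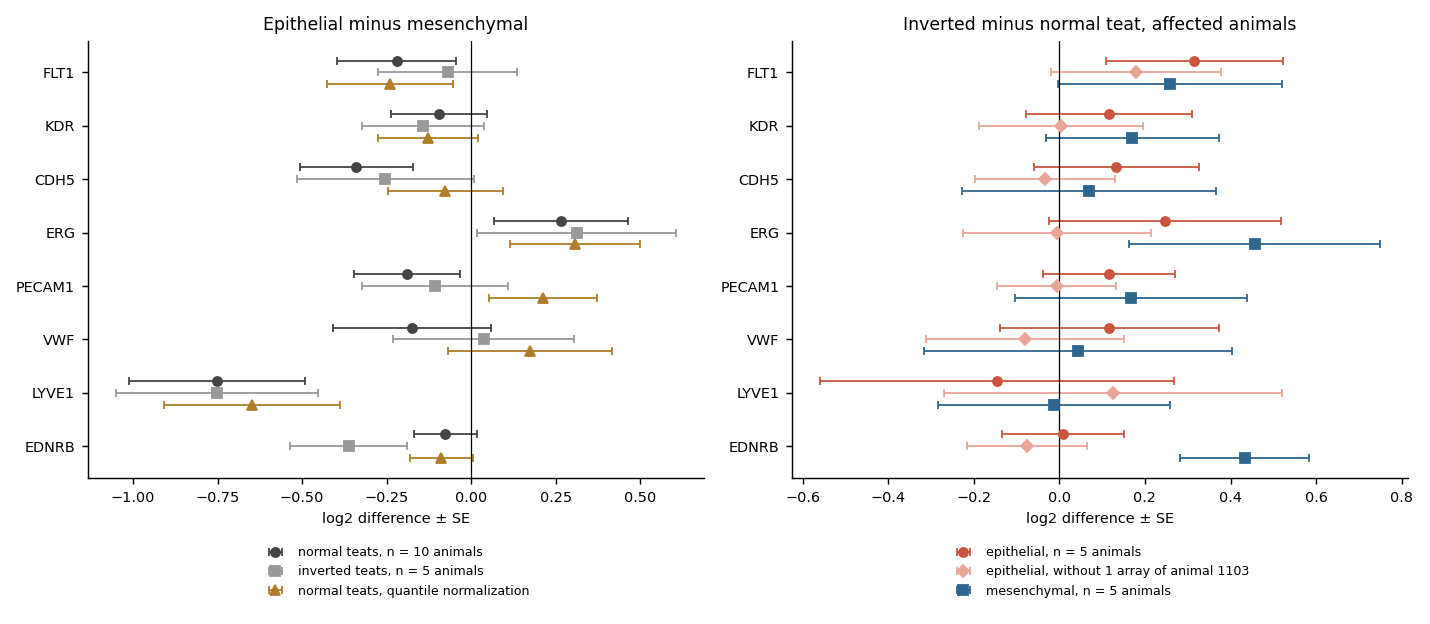
Log2 differences (horizontal axes, point and SE bar) of the 8 vessel genes between tissues, left, and between inverted and normal teats of affected animals, right. LYVE1 lies to the left of 0 at -0.75 in normal and in inverted teats, PECAM1 and VWF change side with quantile normalization, and without the array of animal 1103 the epithelial teat differences of FLT1, KDR, CDH5, ERG, PECAM1 and VWF lie nearer to 0, while LYVE1 turns from -0.15 to 0.12 and EDNRB moves from 0.01 to -0.08.

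Within each tissue, the inverted teats of affected animals were compared as a group with their normal teats, to find what goes with the inverted teat. The main fit had no animal term, so its errors and p-values do not use the pairing of teats. These errors also draw on the arrays of non-affected animals. With the animal as a random block, the estimated correlation between arrays of an animal was 0.40 in epithelial and 0.51 in mesenchymal tissue. In epithelial tissue 0 of 8 genes passed, as did 0% of all 17661 probe sets tested with limma, of which 303 had an unadjusted p under 0.05, or 992 with the animal as a block. The differences were 0.32 ± 0.21 for FLT1 (limma unadjusted p = 0.149), 0.25 ± 0.27 for ERG, 0.13 ± 0.19 for CDH5, 0.12 ± 0.19 for KDR, 0.12 ± 0.15 for PECAM1 and 0.12 ± 0.26 for VWF. LYVE1 differed by -0.15 ± 0.41 and EDNRB by 0.01 ± 0.14. The median of the 8 was 0.12, against 0.00 over all probe sets.

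These epithelial values depended on the array of animal 1103. Without it FLT1 kept 0.18 ± 0.20, and KDR, CDH5, ERG, PECAM1 and VWF lay between -0.08 and 0.00, with CDH5 at -0.03 and ERG at -0.01. LYVE1 turned from -0.15 to 0.12. By animal, FLT1 was higher in the inverted teat in 5 of 5 animals, ERG in 4, KDR in 3 and CDH5, PECAM1 and VWF in 2 each. The second probe sets of CDH5 and VWF were higher in 4 of 5 animals and that of PECAM1 in 3. The vessel genes on this array moved together with the drop of luminal keratins and the rise of smooth muscle genes described above. A limma fit with the luminal keratin mean as a covariate also called 0 of 17661 probe sets. The part of the smooth muscle genes in the result was not tested.

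In mesenchymal tissue 0 of 8 genes passed, as did 0% of 17839 probe sets tested with limma, of which 78 had an unadjusted p under 0.05, or 535 with the animal as a block. EDNRB had the lowest unadjusted p of the 8 genes, with a difference of 0.43 ± 0.15 (SE, n = 5 animals, limma unadjusted p = 0.0113, adjusted p = 1). It was 0.37 to 0.56 with single animals left out and 0.44 ± 0.16 with the luminal keratin mean as a covariate. ERG differed by 0.46 ± 0.29, FLT1 by 0.26 ± 0.26, KDR by 0.17 ± 0.20 and PECAM1 by 0.17 ± 0.27. CDH5 with 0.07 ± 0.30, VWF with 0.04 ± 0.36 and LYVE1 with -0.01 ± 0.27 lay well within their errors, and CDH5 and VWF turned to -0.02 and -0.05 with quantile normalization. The median of the 8 was 0.17 where the median of all probe sets was 0.07 and 66.3% of all probe sets had higher values in inverted teats.

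Marker genes moved in the same mesenchymal samples. The luminal keratin mean was higher in the inverted teat of 1059 (9.65 against 5.78) and 1103 (8.76 against 2.38), and the skeletal muscle mean was lower in the inverted teat of 963 (3.31 against 11.99). The melanocyte markers, another source of EDNRB, had list means of 4.18 to 5.51 in mesenchymal normal and 4.49 to 5.33 in inverted teats of affected animals over 5 genes. Their part in the EDNRB values was not tested.

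**Figure D3:**
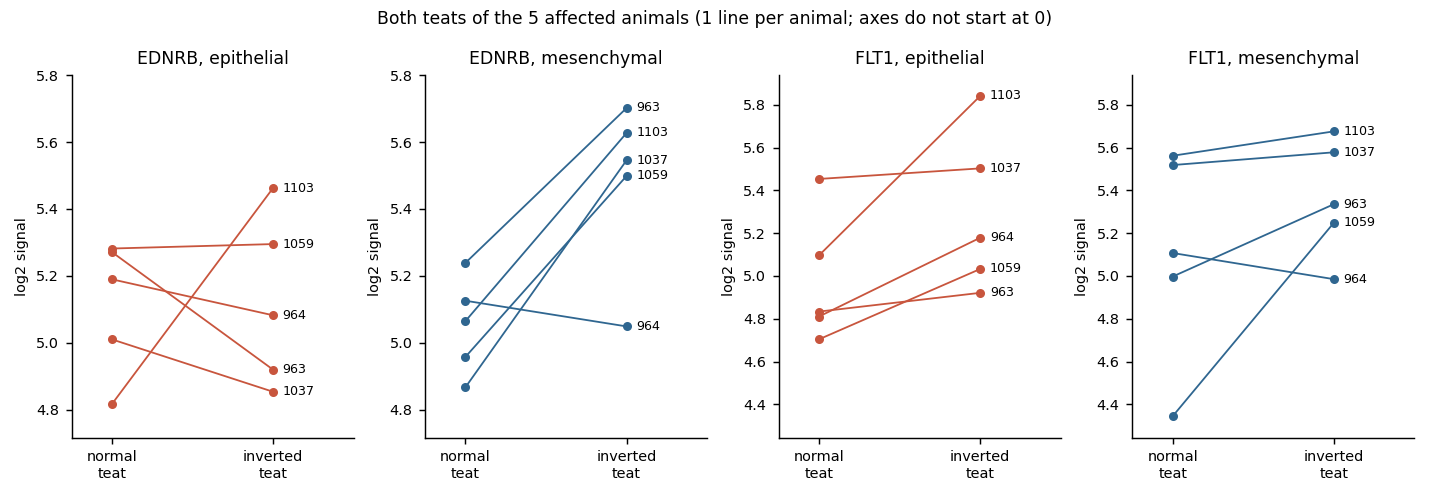
Log2 signal (vertical axis) of EDNRB and FLT1 in the normal and the inverted teat of the 5 affected animals, 1 line per animal with its number, by tissue. EDNRB rises in 4 of 5 lines in mesenchymal tissue and in 2 of 5 in epithelial tissue, and FLT1 rises in 5 of 5 epithelial and 4 of 5 mesenchymal lines.

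Whether a teat difference differed between the tissues was tested as an interaction. EDNRB had the lowest p of the 8 genes with -0.42 ± 0.19 (limma unadjusted p = 0.0372, adjusted p = 1), and -0.51 ± 0.19 without the epithelial array of animal 1103. The other 7 interactions lay between -0.21 and 0.07, each smaller than its standard error. With limma 0 of the 8 genes and 0% of 18783 probe sets passed, with 171 at an unadjusted p under 0.05. The main fit had no animal term here either, and that count was 421 with the animal as a random block.

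The normal teats of both kinds of animal were compared to see what goes with the animal rather than with the teat. Again 0 of 8 genes and 0% of all probe sets passed in either tissue, with 420 epithelial and 201 mesenchymal probe sets at an unadjusted p under 0.05 in limma. In epithelial tissue LYVE1 differed by 0.49 ± 0.41, FLT1 by 0.21 ± 0.21 and VWF by 0.19 ± 0.26. The dimmer of the tested VWF probe sets went the other way, at -0.52 ± 0.18 (limma unadjusted p = 0.0107, adjusted p = 0.999). In mesenchymal tissue ERG differed by -0.56 ± 0.29 (limma unadjusted p = 0.0773), PECAM1 by -0.27 ± 0.27 and LYVE1 by 0.23 ± 0.27. The interactions for this contrast were also 0 of 8, with 0% of all probe sets called and 121 at an unadjusted p under 0.05.

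Inverted teats of affected animals were set against normal teats of non-affected animals as well, a comparison that shares arrays with those above. In epithelial tissue all 8 genes had higher values in inverted teats, with a median of 0.23. Of all probe sets 44.5% had higher values, with a median of -0.02. ERG (-0.05) and PECAM1 (-0.01) were lower once the array of animal 1103 was left out. The dimmer of the tested VWF probe sets went the other way, with means of 4.86 in inverted teats and 5.19 in normal teats of non-affected animals. Here 0 of 8 genes and 0% of all probe sets were called (484 at an unadjusted p under 0.05 in limma). FLT1 differed by 0.53 ± 0.21 (limma unadjusted p = 0.0223, adjusted p = 1), which fell to 0.39 ± 0.20 without the array of animal 1103. LYVE1 differed by 0.35 ± 0.41 and VWF by 0.30 ± 0.26, and without that array they were 0.62 ± 0.40 and 0.11 ± 0.23. In mesenchymal tissue 0 of 8 genes and 0% of all probe sets passed, with 219 at an unadjusted p under 0.05, FLT1 at 0.28 ± 0.26 and EDNRB at 0.26 ± 0.15.

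Ligands and partners of these receptors were read from lists of vessel genes, whose counts stand beside the 12.9% of all probe sets called higher and the 20.6% called lower in epithelial tissue of normal teats. In normal teats VEGFA, a ligand of KDR and FLT1, and VEGFB, a ligand of FLT1, were lower in epithelial tissue, by -0.80 ± 0.23 (limma adjusted p = 0.0121) and by -0.67 ± 0.16 (adjusted p = 0.00443). They were 2 of the 3 measured genes of the VEGF list, and the remaining one, NRP2, did not pass. VEGFB no longer passed with quantile normalization (-0.36). VEGFA measured 7.87 ± 0.39 and 7.57 ± 0.10 (SD, n = 5) in epithelial normal teats of non-affected and affected animals, against 8.67 ± 0.79 and 8.37 ± 0.68 in mesenchymal ones. The angiopoietin list had 1 of 6 genes lower and 0 higher, below the 20.6% of all probe sets called lower. The lower one was ANGPTL4, a secreted inhibitor of lipoprotein lipase, at -1.59 ± 0.35 (adjusted p = 0.00205). In the same samples all 7 adipocyte genes measured were lower in epithelial tissue, with a median of -2.34, and all 10 skeletal muscle genes, with a median of -6.31, whose part in these differences was not tested.

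The endothelin list had 1 of 3 genes higher in epithelial tissue. This was EDNRA, the other endothelin receptor, at 0.72 ± 0.15 (limma adjusted p = 0.00124), with means of 6.67 ± 0.16 and 6.37 ± 0.30 in epithelial against 5.97 ± 0.27 and 5.62 ± 0.52 in mesenchymal normal teats (SD, n = 5). EDNRB, in contrast, did not pass, and the ligand EDN1 had 0.23 ± 0.24 (adjusted p = 0.486). Of 3 lymphatic genes beside LYVE1, 2 were higher in epithelial tissue, opposite to LYVE1, where 12.9% of all probe sets were higher. They were CCL21, a chemokine of lymphatic endothelium and lymphoid stroma, at 1.47 ± 0.41 (adjusted p = 0.0101) and NR2F2, a transcription factor of venous and lymphatic endothelium that mesenchymal cells also express, at 0.71 ± 0.16 (adjusted p = 0.00264). The remaining gene, PDPN, had the direction of LYVE1 at -0.32 ± 0.13 and did not pass (limma adjusted p = 0.0711). In inverted teats none of these 3 genes passed, with CCL21 at 0.75 ± 0.38, NR2F2 at 0.70 ± 0.31 and PDPN at -0.64 ± 0.33. The difference between LYVE1 and these genes was not tested.

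Of 8 endothelial transcription factors 6 passed in normal teats, where 33.5% of all probe sets did. LMO2, GATA2 (0.59 ± 0.17, limma adjusted p = 0.0105), NR2F2 and HHEX were higher in epithelial tissue, and ETS2 and EPAS1 were lower, EPAS1 without a call under quantile normalization. HHEX lay near the limit for testing, the 30th percentile of 4.49 to 4.84. Its mesenchymal normal teats reached at most 4.63 in non-affected and 4.36 in affected animals, so it was tested mostly through epithelial arrays. In inverted teats HHEX was not tested. LMO2, HHEX, ETS2 and EPAS1 fall outside the rule for named genes and were named after their values were seen. The median of the 8 was 0.20, against -0.06 over all probe sets. The pericyte and vascular smooth muscle list had 0 higher and 2 lower of 11, with DES, an intermediate filament of muscle cells including skeletal muscle, at -2.65 ± 0.49 (adjusted p = 0.000482); with quantile normalization 4 were higher and 3 lower. The Notch and BMP list and the haemostasis list each had 1 of 7 genes lower and 0 higher, which is below the 20.6% of all probe sets called lower. Of 17 tested surface and junction genes 0 passed with limma, and 2 were higher in epithelial tissue with quantile normalization. In inverted teats VEGFB (-0.78 ± 0.20, adjusted p = 0.0293) and ANGPTL4 (-1.88 ± 0.35, adjusted p = 0.0163) were lower in epithelial tissue, and with quantile normalization, where only 2 probe sets in all were called, VEGFB had -0.37 and ANGPTL4 -1.76 without a call.

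In the teat comparisons the ligands did not pass either. Between inverted and normal teats of affected animals, VEGFA differed by 0.21 ± 0.17 in epithelial and by -0.09 ± 0.37 in mesenchymal tissue. VEGFB differed by -0.04 ± 0.16 and 0.07 ± 0.27, and EDN1 by -0.09 ± 0.29 and 0.01 ± 0.46. Between affected and non-affected animals VEGFA differed by -0.29 ± 0.17 in epithelial and by -0.30 ± 0.37 in mesenchymal normal teats (adjusted p = 0.999 and 1, limma).

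The blood endothelial genes varied together from array to array. After the group means were removed, the 30 arrays, which share 10 animals, gave Pearson correlations of 0.86 between FLT1 and CDH5, 0.84 between PECAM1 and VWF, 0.83 between CDH5 and VWF and 0.80 between ERG and PECAM1. These 5 genes also followed the mean of 8 other endothelial genes, TIE1, TEK, CLDN5, ESAM, ICAM2, EGFL7, ENG and CD34, with r of 0.91 for VWF, 0.90 for CDH5, 0.89 for FLT1, 0.77 for PECAM1 and 0.60 for ERG. Leaving out the epithelial array of animal 1103 gave 0.90, 0.89, 0.87, 0.74 and 0.53 for these 5 genes, and 0.84, 0.82, 0.80 and 0.78 for the 4 pairs. Probe sets of the same gene gave 0.95 for CDH5, 0.94 for the brighter pair of LYVE1, 0.92 for PECAM1 and 0.70 and 0.59 for the brightest pairs of FLT1 and VWF.

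KDR, LYVE1 and EDNRB did not share this pattern to the same degree. KDR correlated with the 5 blood endothelial genes with r of 0.53 to 0.69 over 15 epithelial arrays, 0.38 to 0.57 without the array of animal 1103, and -0.33 to 0.12 over 15 mesenchymal arrays, and its 2 probe sets gave -0.18 with each other. LYVE1 had negative correlations with every other member, from -0.49 with VWF to -0.12 with FLT1, though without the array of animal 1103 that with FLT1 was 0.02 and those over the other 14 epithelial arrays ran from -0.38 with VWF to 0.25 with FLT1. Among marker lists, LYVE1 gave 0.55 with the mean of 6 macrophage genes, 0.50 with 10 skeletal muscle genes and 0.40 with 7 adipocyte genes. Without the array of animal 1103 these were 0.50, 0.49 and 0.39. With 2 other lymphatic endothelial genes LYVE1 gave 0.24, or 0.07 without that array. Over epithelial arrays alone the adipocyte value, 0.61, was above the macrophage value, 0.52. Without that array these 2 were 0.63 and 0.40, and 4 Schwann cell genes gave the highest value, 0.76, against -0.01 with it. EDNRB stayed between -0.28 and 0.16 with the other members over the 30 arrays, and between -0.23 and 0.03 without the array of animal 1103. Its range was wider over epithelial arrays alone, from -0.32 with LYVE1 to 0.32 with KDR. Over the other 14 epithelial arrays EDNRB ran from -0.54 with FLT1 and CDH5 to 0.095 with KDR. These values are descriptions. KDR, EDNRB and FLT1 lie low in the signal range, with means of 4.93, 5.17 and 5.10. KDR was above the limit for testing on 20 arrays and FLT1 on 25, and the 2 probe sets of EDNRB gave 0.14 with each other. The part of signal level in these correlations was not tested. The mesenchymal KDR correlations include the low signal of 4.21 in the mesenchymal normal teat of animal 1103 and were not taken without it.

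**Figure D4:**
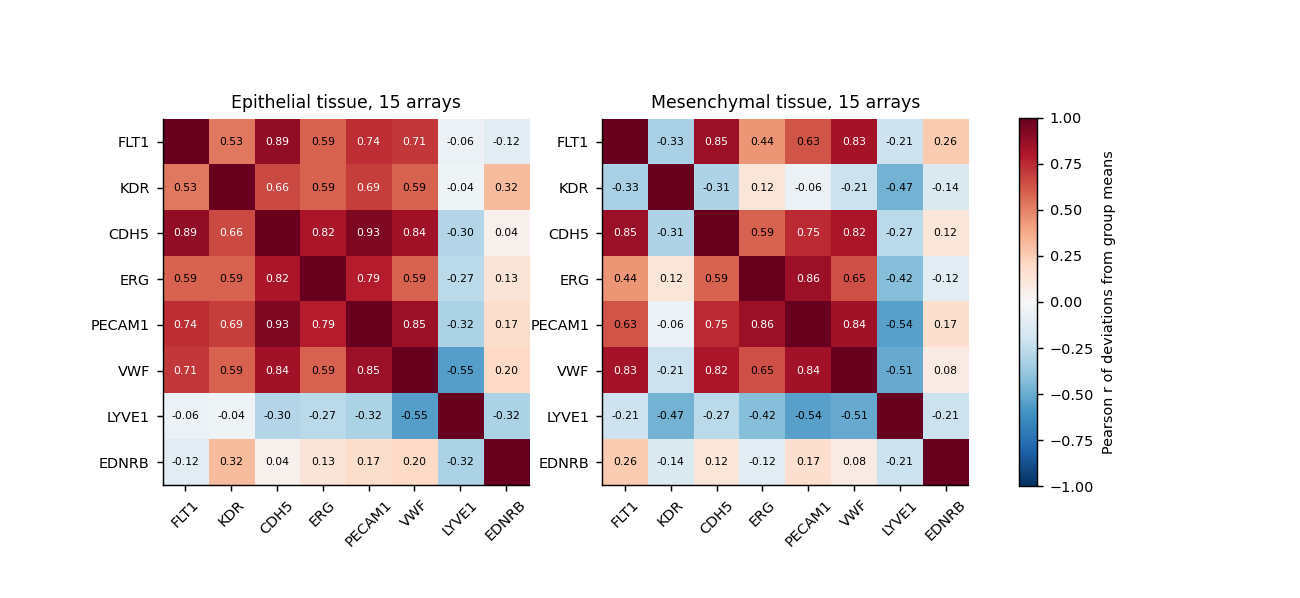
Pearson correlation (colour scale from -1 to 1) between the 8 vessel genes over 15 epithelial arrays, left, and 15 mesenchymal arrays, right, after removal of group means. FLT1, CDH5, ERG, PECAM1 and VWF form a positive block in both tissues, KDR joins it in epithelial tissue with 0.53 to 0.69, and LYVE1 is negative with every other gene, but without the array of animal 1103 these KDR values are 0.38 to 0.57 and the epithelial LYVE1 values run from -0.38 to 0.25.

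The single-symbol genes most like each member, ranked over 6230 genes by r across the 30 arrays, that of animal 1103 included, were in part other endothelial genes. VWF was most like the angiopoietin receptor relative TIE1, the secreted endothelial protein EGFL7 and the tight junction protein CLDN5, with r of 0.89, 0.89 and 0.88. CDH5 was most like NTAN1, SH2D3C and PEA15 with 0.92, 0.92 and 0.91. FLT1 was most like CDH5, NTAN1 and the tetraspanin CD151 with 0.86, 0.85 and 0.85. For ERG these were ITM2A, GUCY1B3 and AKAP2 with 0.84, 0.84 and 0.81, and for PECAM1 they were APOA1, POLR2B and PDLIM1 with 0.94, 0.86 and 0.86. LYVE1 was most like MEDAG, the microfibril protein MFAP5 and the macrophage scavenger receptor CD163, with 0.75, 0.73 and 0.72. KDR was most like the arterial ligand EFNB2, PLEKHB1 and PRKRA with 0.75, 0.68 and 0.68. EDNRB had no close match, its 3 highest being CYP8B1, RAB26 and LOC396796 with 0.53, 0.52 and 0.52.

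Vessel genes also varied with markers of other cell types. Over 15 mesenchymal arrays, VWF and the mean of 10 skeletal muscle genes gave r of -0.80, and PECAM1 gave -0.69. Animal 1040, highest for both, had a muscle mean of 2.82, and animal 1059, lowest for both, one of 12.61. Over 15 epithelial arrays CDH5 gave -0.88 with 6 fibroblast genes, -0.86 with the luminal keratins and 0.77 with 8 smooth muscle genes. These arrays include that of animal 1103, which is extreme on each axis, and without it the values were -0.76, -0.75 and 0.49. Over all arrays of both tissues CDH5 and the smooth muscle genes gave 0.10, or -0.13 without it. These correlations share arrays and animals and carry no test.

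**Figure D5:**
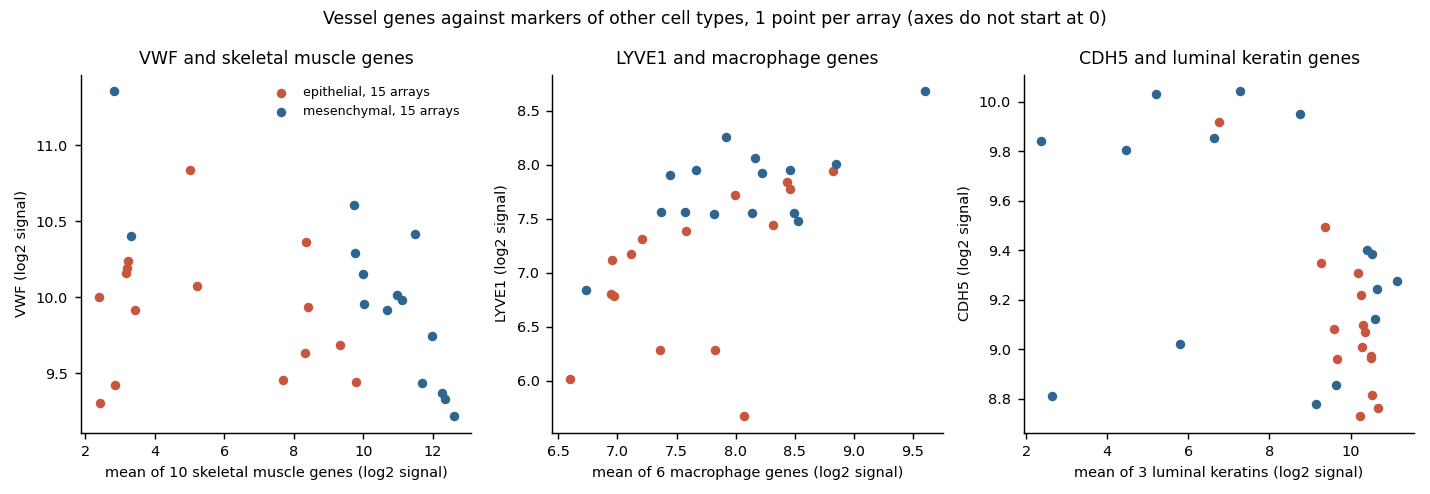
Log2 signal of VWF, LYVE1 and CDH5 (vertical axes) against the array mean of skeletal muscle, macrophage and luminal keratin genes (horizontal axes, log2 signal), 1 point per array, epithelial in red and mesenchymal in blue. VWF lies lowest on the mesenchymal arrays with the most muscle signal, LYVE1 rises with the macrophage mean, and the epithelial array with the highest CDH5 signal has the lowest keratin mean of its tissue, 6.75.

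The vessel level of one tissue showed no relation that passed correction with the other tissue of normal teats of the same animal. Over 10 animals, with status means removed, the epithelial and mesenchymal CDH5 signals gave Pearson r = -0.15 and Spearman rho = -0.21 (permutation p = 0.678 and 0.561, 2-sided). PECAM1 gave r = -0.56 and rho = -0.60 (permutation p = 0.0917 and 0.0732), and -0.40 without the 2 animals farthest from the epithelial median. KDR was the only gene of the 8 with a permutation p under 0.05, with r = 0.615 and rho = 0.71 (p = 0.0425 and 0.0269), 0.58 without 2 animals, and Benjamini-Hochberg adjusted p of 0.34 and 0.215 over the 8 genes. The KDR values include the low mesenchymal signal of animal 1103, 4.21, and were not taken without that animal alone. For FLT1, ERG, VWF, LYVE1 and EDNRB r lay between -0.37 and 0.25.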

How the data were processed

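Per the labels' protocols, total RNA was isolated with TRI Reagent, treated with DNase and cleaned on RNeasy columns, and 500 ng was labelled for each array. The authors deposited 1 table of normalized probe set values on a log2 scale; no label states the base, which was taken from their range. Per the submitters' processing notes, the tools included GCOS 1.1.1 and PLIER, and their roles are not given in the sources used here. Gene symbols came from the platform annotation: 10099 probe sets had 1 symbol, 198 several and 13826 none. All 8 genes matched RefSeq by Entrez ID.

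The deposited log2 values were tested with limma 3.58.1 (R 4.3.3; lmFit, contrasts.fit, eBayes, Benjamini-Hochberg) on every probe set that exceeded the 30th percentile of an array in 5 or more of the arrays fitted, leaving out 124 control probe sets. Each tissue was fitted apart for the teat comparisons (15 arrays), normal teats together for the tissue comparison (20 arrays, status as covariate) and all 30 arrays for interactions. Errors are SD over animals or SE from the fit. The fits were tested on simulated data. The number of arrays limits the precision. Scan batches are not given in the sources used here, and separate RNA extractions per array are not stated.

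Animal numbers, from the sample descriptions, pair the arrays: after removal of group means, both epithelial pieces of an affected animal correlated with r of 0.245 to 0.538, both mesenchymal pieces with 0.141 to 0.668, and both tissues of an animal with -0.026 to 0.69. The animal as a block was an alternative, with quantile normalization, no filter, breed, keratin mean, other probe sets and left-out animals or array.

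The named genes are the 8 members, the 4 genes per direction with the smallest p past the threshold from the vessel lists, the measured ligands VEGFA, VEGFB and EDN1, and the 3 genes most like each member. The members and lists were chosen with earlier results of these data known. Genes of a list are represented by the brightest probe set. No gene sequences or coordinates were used here.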

Additional observations from a re-analysis of the deposited data

Results flagged for a closer look

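Among 48 sets of 5 values (8 genes in 6 groups), 1 held a value far from the rest of its group: KDR measured 4.21 in the mesenchymal normal teat of animal 1103, where the 4 other affected animals measured 5.01 to 5.20. The gap was 0.805 of the range of the group. Chance alone would mark about 1 in 20 groups, so 1 of 48 is fewer than that rate gives.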

How the results depend on the processing

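Of the 80 member differences (8 genes in 10 comparisons), 1 was called in the main analysis, LYVE1 between tissues of normal teats. It was kept with no filter, with breed as a covariate and in the replicate block fits, with an adjusted p from limma of 0.0122 (random animal term) and 0.0279 (fixed animal term). The number of members called there was 0 with quantile normalization and 0 to 1 without single animals. None of the 79 others was called under any alternative taken singly, and the paired fits changed no call of a main probe set. The second probe sets of CDH5 and VWF did pass between tissues of normal teats with the animal as a random block, as given above. Among 1242 recomputed values 103 changed sign, none of them a called one: 9 of 80 with quantile normalization, 9 of 48 with the keratin mean, 13 of 32 without the 1 array that stood apart (animal 1103), 58 of 760 without single animals and 14 of 50 on other probe sets. Over all probe sets, 6122 were called between tissues of normal teats (4413 to 6778 without single animals), with 38.5% higher in epithelial tissue and 54.7% with quantile normalization. In inverted teats the count of 2115 was 3683 with the replicate block as a random term, 2 with quantile normalization, 1090 with no filter, 1317 without the array of animal 1103 and 1 to 1422 without single animals. The other comparisons called 0 probe sets, except 1 in mesenchymal tissue between affected and non-affected animals without animal 957 (0 to 1 over the animals left out). The causes of these changes were not tested. FLT1, KDR and EDNRB lie low in the signal range.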
